A study of Mus musculus with 20 samples.

Results

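Axon guidance ligands and receptors were followed across the 4 groups of hemisphere and IDR1018 treatment. The members were chosen by a rule on names, which was set with earlier results of these data known. The rule took every gene of the semaphorin 3 to 7, plexin, neuropilin, ephrin, Eph receptor, Slit, Robo, netrin, Unc5 and Dcc families whose probe set carried exactly 1 symbol in the platform annotation. The members came to 68 genes, 35 ligands and 33 receptors, of 19937 genes with a single symbol. Where a gene had 2 probe sets, which was so for 4 members, the one with the higher mean over all 20 arrays stood for it. Ephb2, which the same names cover, was not analysed here.

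Hemispheres of C57/Bl6 mice were measured on 1 array each. All 10 animals had LPS-sensitised hypoxia-ischemia (LPS + HI), in which bacterial lipopolysaccharide is combined with reduced blood flow and oxygen, and the left side of the brain is damaged. The 4 groups of 5 arrays were the injured left and the uninjured right hemisphere of 5 animals without peptide, and the same hemispheres of 5 animals given IDR1018, a synthetic peptide related to natural host defence peptides. There was no untreated or sham group, so the left hemisphere is compared only with the right one of animals that had the same LPS + HI. The labels used here give neither a dose nor a time of collection. Values are the deposited log2 probe set summaries from RMA (robust multi-array average, which corrects background, normalises the arrays to each other and summarises probes), and a log2 difference is left minus right unless stated otherwise.

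Axon guidance molecules steer growing nerve fibres during development by attracting or repelling the growth cone, and in the adult brain many of them act at synapses, on myelinating cells and on blood vessels. Semaphorins signal through plexins, and secreted class 3 semaphorins mostly through plexins of the A type with a neuropilin as co-receptor. Ephrins are membrane-bound ligands of the Eph receptor tyrosine kinases and signal in both directions between touching cells. Slits are secreted repellents that bind Robo receptors, and netrins attract through Dcc or repel through Unc5 receptors.

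Promoter windows were taken from RefSeq for GRCm38.p6, from 250 bases before to 50 after an annotated start, and 58 of the 68 members had at least 1, with 74 windows in all. The 3 windows below are shown because their genes stand for the patterns described below: Efna1, higher in the injured hemisphere, Sema3a, the ligand with the strongest decrease, and Epha4, an Eph receptor that decreased. Capitals mark matches to searched motifs. Efna1 has a further window, not shown.
Efna1, chr3:89279596-89279895, minus strand: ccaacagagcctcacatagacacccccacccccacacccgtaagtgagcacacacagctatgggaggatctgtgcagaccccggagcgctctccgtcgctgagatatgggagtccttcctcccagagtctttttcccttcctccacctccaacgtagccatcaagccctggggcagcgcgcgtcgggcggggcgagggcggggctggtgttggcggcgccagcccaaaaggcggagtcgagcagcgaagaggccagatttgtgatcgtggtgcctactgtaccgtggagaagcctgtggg
Sema3a, chr5:13396534-13396833, plus strand: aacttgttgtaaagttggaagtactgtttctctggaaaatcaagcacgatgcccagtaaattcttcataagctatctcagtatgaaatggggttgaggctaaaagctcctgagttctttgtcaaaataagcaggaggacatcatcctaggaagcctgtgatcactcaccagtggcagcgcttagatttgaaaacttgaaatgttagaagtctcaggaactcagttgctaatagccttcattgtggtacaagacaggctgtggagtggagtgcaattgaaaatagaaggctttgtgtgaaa
Epha4, chr1:77515039-77515338, minus strand: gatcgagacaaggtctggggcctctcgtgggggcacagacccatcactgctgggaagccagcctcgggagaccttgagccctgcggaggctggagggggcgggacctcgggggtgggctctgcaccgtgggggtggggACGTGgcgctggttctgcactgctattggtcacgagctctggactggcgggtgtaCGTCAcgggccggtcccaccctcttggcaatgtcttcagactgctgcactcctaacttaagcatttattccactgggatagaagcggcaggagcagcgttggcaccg

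In the Epha4 window the capitals are the hypoxia letters and, nearer the start, the CREB core letters on the opposite strand, and neither the Efna1 nor the Sema3a window held a match. The 4 motifs were searched on both strands: AP-1 (TGANTCA), the core of the hypoxia response element (ACGTG), a heat shock motif (GAANNTTC) and the core of the CREB site (TGACG). The run TGACGTG would match both the CREB and the hypoxia letters. The Epha4 window is not typical of the EphA receptors that fell. The windows of Epha3, Epha5 and Epha7 held no match and that of Epha6 only heat shock letters. Epha6 and Epha7 also fell by more than Epha4. AP-1 letters stood in 3 of the 74 member windows (4.05%, against 7.81% of all 32851 windows) and hypoxia letters in 13 (17.6% against 19.6%). The CREB core stood in 10 (13.5% against 20.8%) and the heat shock letters in 1 (1.35% against 7.86%). Median GC content was 64.2% in member windows and 52.7% in all windows. Of the 22 windows of members lower in the injured hemisphere under both treatments, 4 held hypoxia letters (18.2%) and 3 the CREB core (13.6%). AP-1 letters and heat shock letters stood in 1 each (4.55%). Of the 6 windows of members higher under both, 1 held the CREB core and none the other letters. So few windows do not allow a comparison between higher and lower members.

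Member signals lay well inside the measurable range. In all 20 arrays, 66 of the 68 members were above the median of the control probe sets, with Epha1, an Eph receptor best known from epithelia, above it in 17 arrays and the netrin Ntn5 in 2. The median SD of a member between replicates was 0.073 log2 units in the left and 0.061 in the right hemispheres without peptide, and 0.080 and 0.062 with it. Correlations between arrays across probe sets were 0.994 to 0.998. The control probe set median was 6.70 to 6.86 in left and 6.74 to 7.01 in right arrays without peptide, and 6.68 to 6.86 and 6.79 to 6.93 with it. All left hemispheres carry lower array numbers than all right ones, so effects of array order cannot be told apart from those of hemisphere.

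Injured left was first compared with uninjured right in animals without peptide, which asks what differs between the injured and the uninjured side. In the injured hemisphere more members were lower than higher: 28 of the 68 fell (41.2%, against 8.84% of all 28192 probe sets) and 5 rose (7.35%, against 9.21%). All probe sets include dim ones and ones without a listed gene. Over the 19937 genes with a single symbol 10.1% fell and 10.5% rose. With dim probe sets filtered out, 29 of 67 members fell, against 13.7% of probe sets, and 5 rose, against 14.1%. The decreases lay between -0.12 for Sema6a and -0.48 for Sema3a, and even Sema3a, the member that changed most, fell by 28.4%. Among the 33 receptors 18 fell and only Unc5b rose, with a median difference of -0.14. Among the 35 ligands 10 fell and 4 rose (Efna1, Efna3, Efnb1, Sema4c), with a median of -0.06. The median over all members was -0.09 and over all probe sets -0.01. Whether receptors and ligands differ in this was not tested. Calls are at an adjusted p under 0.05 by limma, adjusted by Benjamini-Hochberg over the 28192 probe sets tested.

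**Figure D1:**
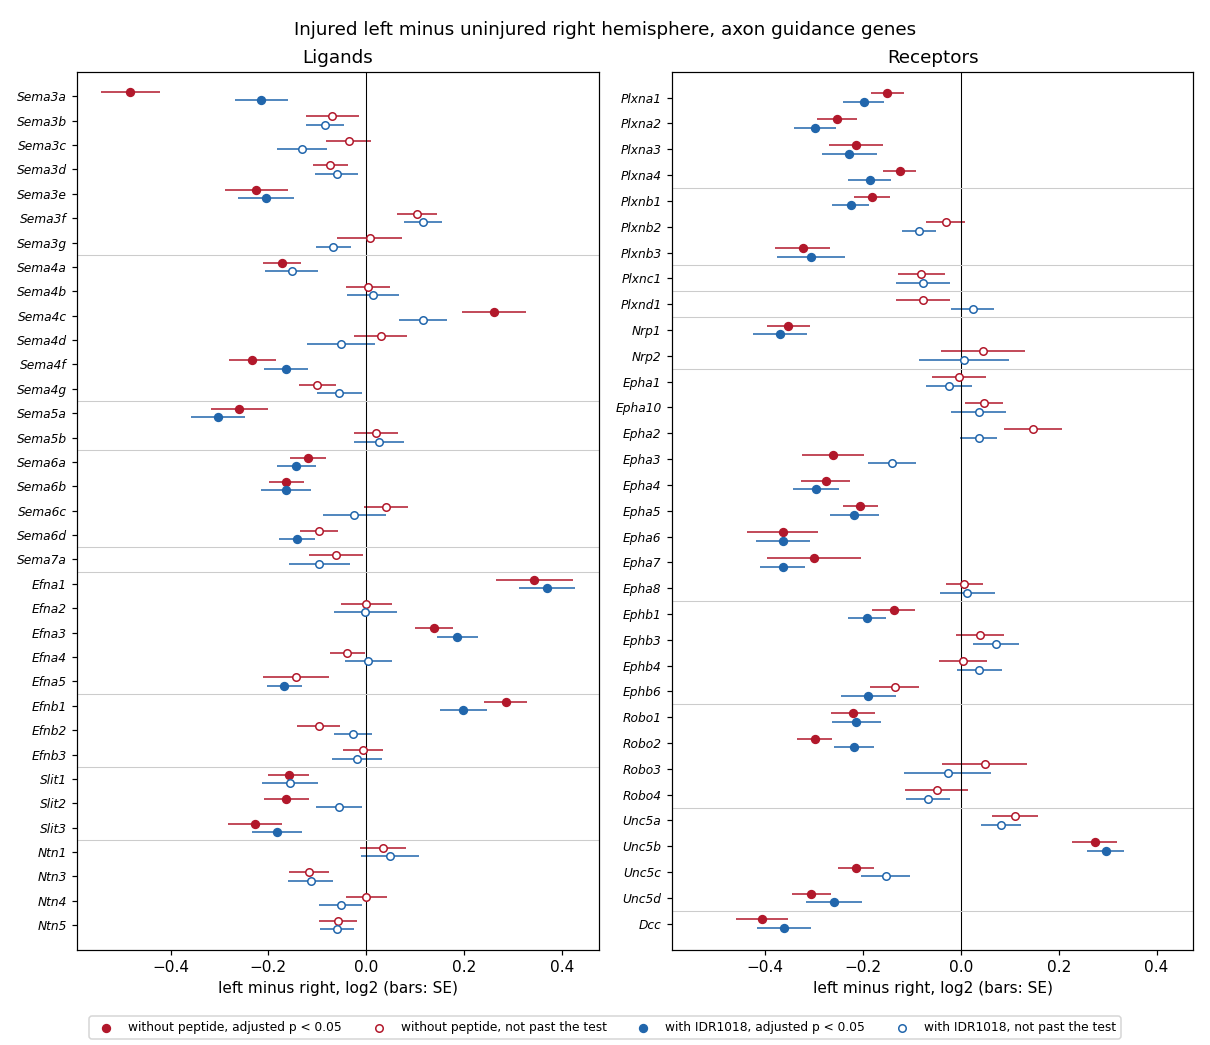
Left minus right log2 difference of each of the 68 members (bars, SE), ligands on one side and receptors on the other, without peptide in red and with IDR1018 in blue; filled points have an adjusted p under 0.05 by limma. Most filled points lie below 0, from -0.48 for Sema3a, and the filled points above 0 are Efna1, Efna3, Efnb1, Sema4c (without peptide only) and Unc5b.

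Sema3a, a secreted repellent, had the strongest decrease. Its values in replicates 1 to 5 were 9.29, 9.41, 9.62, 9.53 and 9.51 in the injured left and 9.92, 10.05, 9.90, 9.90 and 10.00 in the uninjured right hemisphere without peptide. With IDR1018 they were 9.76, 9.72, 9.53, 9.57 and 9.69 on the left and 9.85, 9.89, 9.92, 9.74 and 9.94 on the right. Without peptide every left array was below every right array. With it the left array of replicate 1, at 9.76, was above the right array of replicate 4, at 9.74, so the groups overlapped. The group means were 9.47 ± 0.13 and 9.95 ± 0.07 without peptide and 9.65 ± 0.10 and 9.87 ± 0.08 with it (SD, n = 5 each). Sema3a thus fell by 28.4% without peptide (-0.48 ± 0.06 SE, adjusted p = 0.000415 by limma) and by 13.8% with it (-0.21 ± 0.05, adjusted p = 0.0203). The call with peptide ended when the animal of replicate 2, 3 or 5 was left out, with an adjusted p of up to 0.0887 over all alternatives.

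**Figure D2:**
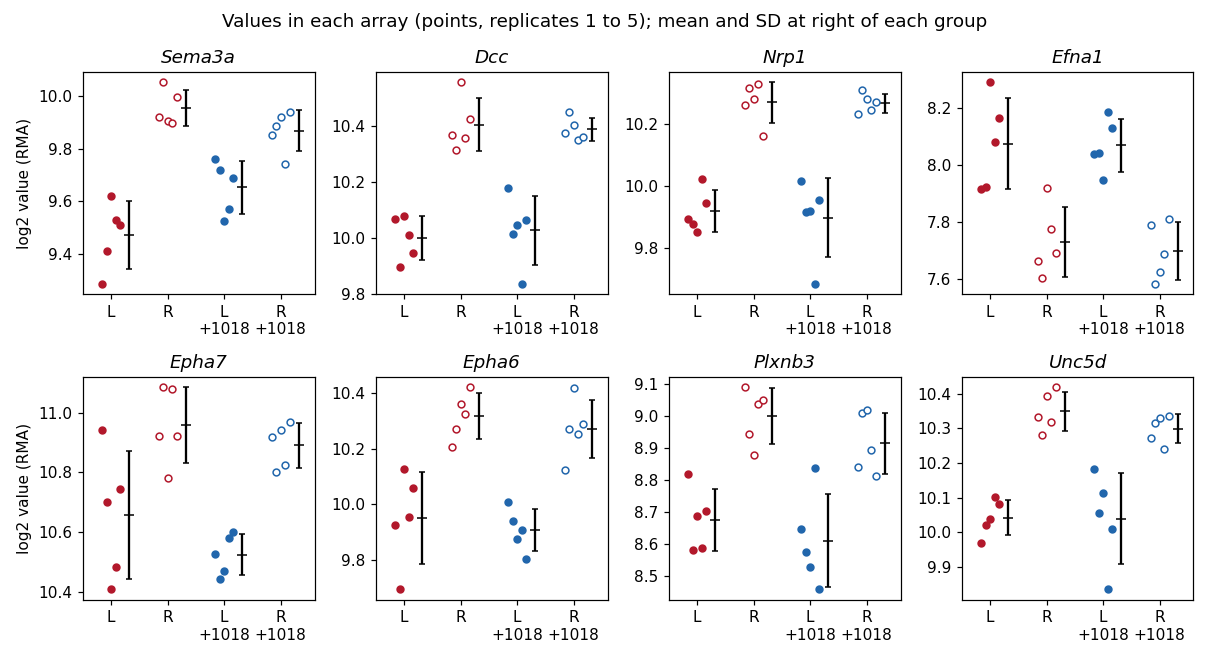
Deposited log2 values of the 8 members with the largest left-right differences, 1 point per array, in the injured left (L, filled) and uninjured right (R, open) hemisphere without peptide (red) and with IDR1018 (blue); the bar beside each group is its mean and SD, n = 5. Dcc, Nrp1, Epha6 and Unc5d have every left array below every right array under both treatments, while Efna1 is higher on the left.

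The other class 3 semaphorins differed less. Sema3e, which binds Plxnd1 without a neuropilin, fell under both treatments (-0.22 ± 0.06, adjusted p = 0.0318, and -0.20 ± 0.06, adjusted p = 0.0332, by limma), with overlapping groups each time. With the replicate block, which pairs the hemispheres of an animal, its adjusted p with IDR1018 was 0.0603. Sema3f, a ligand of Nrp2, was higher on the left in 5 of 5 animals under each treatment (0.10 ± 0.04 and 0.12 ± 0.04), but did not pass the test (adjusted p = 0.109 and 0.0655). Sema3b, Sema3c, Sema3d and Sema3g had differences from -0.13 to 0.01 and passed in neither comparison.

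Among the membrane-bound semaphorins the directions were mixed. Sema4c, a ligand of Plxnb2, rose without peptide from 9.34 on the right to 9.61 on the left (0.26 ± 0.07, adjusted p = 0.0169) and did not pass with IDR1018 (0.12 ± 0.05, adjusted p = 0.135). Its call ended without the animal of replicate 4 or of replicate 5 (adjusted p of up to 0.0952). Sema4f fell in both comparisons (-0.23 ± 0.05 and -0.16 ± 0.04), the second with an adjusted p of 0.0286 that became 0.0678 with the replicate block, and Sema4a fell without peptide (-0.17 ± 0.04, adjusted p = 0.00987; with IDR1018 -0.15 ± 0.05, adjusted p = 0.079). Sema4d, the Plxnb1 ligand known from lymphocytes and oligodendrocytes, differed by 0.03 and -0.05 and did not pass. Sema5a fell under both treatments (-0.26 ± 0.06 and -0.30 ± 0.05), while Sema5b stood at 0.02 and 0.03. The transmembrane Sema6a (-0.12 and -0.14) and Sema6b (-0.16 and -0.16) fell in both comparisons and Sema6d with IDR1018 (-0.14 ± 0.04, adjusted p = 0.0256; without peptide -0.10, adjusted p = 0.108). With the replicate block Sema6a passed in neither comparison (adjusted p = 0.0854 and 0.0822), and Sema6b and Sema6d no longer passed with IDR1018 (0.0648 and 0.0547). Sema7a, which is anchored to the membrane by a lipid and signals through integrins and Plxnc1, differed by -0.06 and -0.10 and did not pass.

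All 4 A-type plexins fell in both comparisons, as did 2 of 3 B-type plexins. Plxna2 differed most within the A type (-0.25 ± 0.04 and -0.30 ± 0.04), followed by Plxna3 (-0.21 and -0.23), Plxna1 (-0.15 and -0.20) and Plxna4 (-0.13 and -0.19). For each of the 4, the left and right groups did not overlap under either treatment. The share of all probe sets without overlap is not given here. For these and other members, groups that lie apart are therefore no support beyond the calls. Only Plxna2 passed with each animal left out in turn. Plxna4, which with Nrp1 forms a Sema3a receptor, had an adjusted p of 0.0234 without peptide, and of 0.0532 with the replicate block.

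Plxnb3, a Sema5a receptor of the oligodendrocyte lineage, was the plexin with the largest difference without peptide. Its left values were 8.82, 8.58, 8.69, 8.59 and 8.70 and its right values 9.09, 8.94, 8.88, 9.04 and 9.05 without peptide. With IDR1018 they were 8.65, 8.58, 8.53, 8.84 and 8.46 on the left and 8.84, 9.01, 9.02, 8.89 and 8.81 on the right. The groups were apart without peptide and overlapped with it, where the left array of replicate 4 was level with the lower right arrays. The differences were -0.32 ± 0.06 (adjusted p = 0.00241) and -0.31 ± 0.07 (adjusted p = 0.012 by limma). The second call ended without the animal of replicate 2 or 3 (adjusted p of up to 0.0714). Plxnb1 fell by smaller steps (-0.18 ± 0.04 and -0.23 ± 0.04). Plxnb2 (-0.03 and -0.09), Plxnc1 (-0.08 and -0.08) and Plxnd1, the vascular Sema3e receptor (-0.08 and 0.02), did not pass.

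Nrp1, the co-receptor of Sema3a and of vascular endothelial growth factor, fell, and Nrp2 did not pass the test. For Nrp1 the left values were 9.89, 9.88, 9.85, 10.02 and 9.95 and the right values 10.26, 10.32, 10.28, 10.33 and 10.16 without peptide. With IDR1018 they were 10.02, 9.91, 9.92, 9.68 and 9.95 on the left and 10.23, 10.31, 10.28, 10.25 and 10.27 on the right. Every left array was thus below every right array under both treatments, the lowest being the left array of replicate 4 with IDR1018. Nrp1 fell by 0.35 ± 0.04 on the log2 scale without peptide (adjusted p = 0.000454) and by 0.37 ± 0.06 with it (adjusted p = 0.0011 by limma), and it passed in each of the 13 alternatives run for each comparison. Nrp2 differed by 0.04 ± 0.09 and 0.01 ± 0.09.

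Of the 8 measured ephrins, 3 rose in both comparisons (Efna1, Efna3 and Efnb1). Efna1, a cytokine-inducible A-type ephrin that is abundant in endothelium, had left values of 7.92, 7.92, 8.29, 8.08 and 8.16 and right values of 7.66, 7.60, 7.92, 7.78 and 7.69 without peptide. With IDR1018 the left values were 8.04, 8.04, 7.95, 8.18 and 8.13 and the right values 7.79, 7.58, 7.62, 7.69 and 7.81. Left exceeded right in all 10 animals, although without peptide the lowest left arrays were level with the highest right array, that of replicate 3. Efna1 rose by 26.9% without peptide (0.34 ± 0.08, adjusted p = 0.0113) and by 29.2% with it (0.37 ± 0.06, adjusted p = 0.00134 by limma). Without the animal of replicate 5 the call without peptide ended (adjusted p = 0.0652).

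Efnb1, a transmembrane B-type ephrin, rose under both treatments without overlap. Its array values, chosen for printing after they were seen, were 9.27, 9.25, 9.39, 9.40 and 9.38 on the left and 9.13, 9.05, 9.04, 9.06 and 8.98 on the right without peptide. The increase was 21.8% (0.29 ± 0.04, adjusted p = 0.0013) without peptide and 0.20 ± 0.05 on the log2 scale (adjusted p = 0.0172) with it. Efna3 rose by 10.1% without peptide (0.14 ± 0.04, adjusted p = 0.027) and by 0.19 ± 0.04 with it (adjusted p = 0.0103). The first of these calls ended with each array centred on its median (adjusted p = 0.058). Efna5, a ligand of EphA receptors in topographic mapping, was lower by -0.14 ± 0.07 without peptide and did not pass (adjusted p = 0.167), but fell with IDR1018 (-0.17 ± 0.04, adjusted p = 0.00994). With the replicate block its adjusted p without peptide was 0.0323. Efna2, Efna4, Efnb2 (the arterial ephrin) and Efnb3 passed in neither comparison, with differences from -0.10 to 0.00.

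Of the 9 measured EphA receptors, Epha3, Epha4, Epha5, Epha6 and Epha7 fell without peptide, and 4 of these 5 (all but Epha3) fell with IDR1018. Epha6 had left values of 9.93, 9.69, 10.13, 9.96 and 10.06 and right values of 10.21, 10.27, 10.36, 10.33 and 10.42 without peptide. With the peptide they were 10.01, 9.94, 9.88, 9.91 and 9.80 on the left and 10.13, 10.27, 10.42, 10.25 and 10.29 on the right. No left array reached a right array under either treatment. The differences were -0.36 ± 0.07 (adjusted p = 0.00551) and -0.36 ± 0.05 (adjusted p = 0.00114 by limma).

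Epha7 was the most variable of these receptors without peptide. Its left values were 10.94, 10.70, 10.41, 10.48 and 10.75 against 10.92, 11.08, 10.78, 11.08 and 10.92 on the right. With IDR1018 the left values were 10.53, 10.44, 10.47, 10.58 and 10.60 and the right values 10.92, 10.80, 10.94, 10.82 and 10.97. Without peptide the left array of replicate 1 was above its own right array, so 4 of 5 animals were lower on the left, while with peptide all left arrays were below all right arrays. Epha7 passed narrowly without peptide (-0.30 ± 0.10, adjusted p = 0.0479), and this call ended without the animal of replicate 2, 3, 4 or 5 (adjusted p of up to 0.209). With IDR1018 the difference was -0.36 ± 0.05 (adjusted p = 0.000388).

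Epha4, a receptor for both ephrin types that limits axon regrowth and acts at synapses, fell from 11.82 on the right to 11.54 on the left without peptide (-0.28 ± 0.05, adjusted p = 0.00322) and from 11.82 to 11.52 with it (-0.30 ± 0.05, adjusted p = 0.00153), without overlap. Epha5 fell by similar amounts in both comparisons (-0.21 ± 0.04 and -0.22 ± 0.05). Epha3 fell without peptide (-0.26 ± 0.06, adjusted p = 0.0143) and did not pass with it (-0.14 ± 0.05, adjusted p = 0.0772). Epha2, a receptor of epithelia and endothelium, was higher by 0.15 ± 0.06 without peptide and by 0.04 ± 0.04 with it and did not pass (adjusted p = 0.111 and 0.58). Epha1, Epha8 and Epha10 had differences between -0.02 and 0.05. Of the 4 EphB receptors, Ephb1 fell in both comparisons (-0.14 ± 0.04, adjusted p = 0.0468, and -0.19 ± 0.04, adjusted p = 0.00711). The replicate block gave it an adjusted p of 0.0616 without peptide. Both calls ended with the mean of its 2 probe sets, where the difference with IDR1018 was -0.11 (adjusted p = 0.091). Ephb6, which lacks kinase activity, fell with IDR1018 (-0.19 ± 0.06, adjusted p = 0.0401, and 0.0537 with the replicate block) but did not pass without it (-0.14 ± 0.05, adjusted p = 0.0846). Ephb3 and Ephb4, the venous EphB receptor, did not pass.

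**Figure D3:**
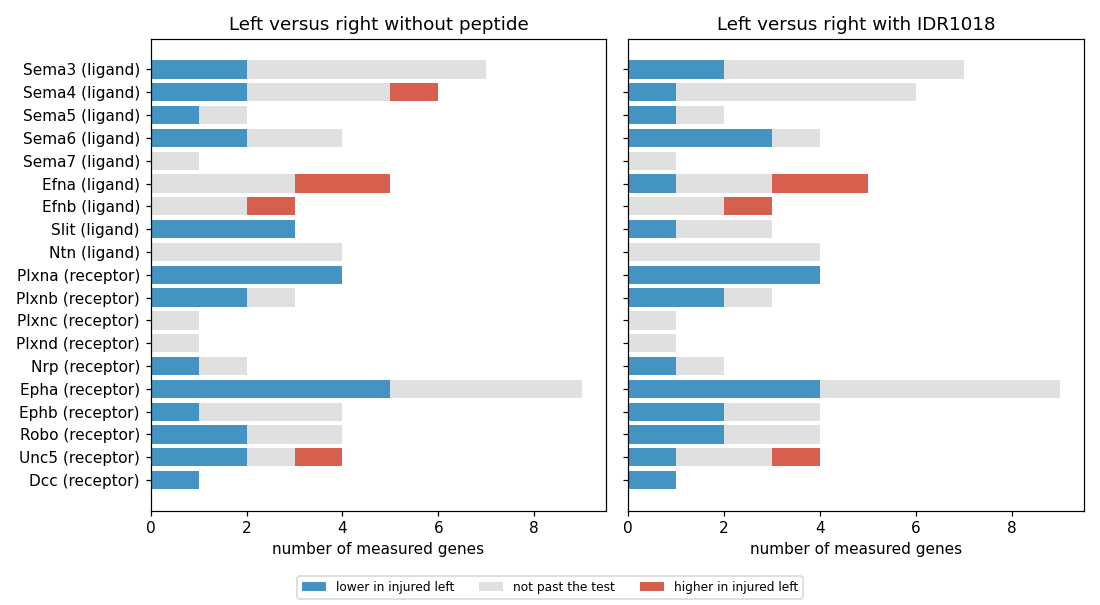
Number of measured genes of each family that were lower (blue), higher (red) or not past the test (grey) in the injured left hemisphere, without peptide and with IDR1018, at an adjusted p under 0.05 by limma. All 4 A-type plexins are blue in both panels, and red appears only among the ephrins, Unc5 and, without peptide, the class 4 semaphorins.

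The 3 Slits fell without peptide, Slit3 by the most (-0.23 ± 0.06, adjusted p = 0.0146), with Slit1 and Slit2 both at -0.16. With IDR1018 Slit3 fell (-0.18 ± 0.05, adjusted p = 0.0335), while Slit1 (-0.16 ± 0.06, adjusted p = 0.0899) and Slit2 (-0.06 ± 0.05, adjusted p = 0.48) did not pass. Their neuronal receptors Robo1 and Robo2 fell in both comparisons. Robo2 stood at 11.65 on the left and 11.95 on the right without peptide (-0.30 ± 0.04, adjusted p = 0.000371) and at 11.71 and 11.92 with it (-0.22 ± 0.04, adjusted p = 0.00408). Robo1 differed by -0.22 ± 0.05 and -0.21 ± 0.05. Robo3 (0.05 and -0.03) and the endothelial Robo4 (-0.05 and -0.07) did not pass.

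None of the 4 netrins passed the limma test in either comparison, and of the 4 only Ntn3 had an unadjusted p under 0.05, in both. Ntn1, the classical attractant, differed by 0.03 ± 0.05 and 0.05 ± 0.06, Ntn4, a netrin of basement membranes, by 0.00 and -0.05, and Ntn3 by -0.12 and -0.11 (adjusted p = 0.0742 and 0.12). Their receptor Dcc did pass. It had left values of 10.07, 9.89, 10.08, 10.01 and 9.95 and right values of 10.37, 10.32, 10.56, 10.36 and 10.43 without peptide. With IDR1018 they were 10.18, 10.01, 10.05, 9.83 and 10.06 on the left and 10.38, 10.45, 10.41, 10.35 and 10.36 on the right. The 2 hemispheres did not overlap under either treatment. Dcc fell by 24.5% without peptide (-0.41 ± 0.05, adjusted p = 0.000554) and by 0.36 ± 0.06 on the log2 scale with it (adjusted p = 0.00128 by limma), and it passed in all 13 alternatives of each comparison.

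The 4 Unc5 receptors, which mediate repulsion from netrins, went in different directions. Unc5d had left values of 9.97, 10.02, 10.04, 10.10 and 10.08 and right values of 10.33, 10.28, 10.39, 10.32 and 10.42 without peptide. With IDR1018 they were 10.18, 10.06, 10.11, 9.84 and 10.01 on the left and 10.27, 10.32, 10.33, 10.24 and 10.34 on the right. Left and right were apart under both treatments. Unc5d fell by 0.31 ± 0.04 on the log2 scale (adjusted p = 0.000527) and by 0.26 ± 0.06 (adjusted p = 0.0106), the latter not passing without the animal of replicate 2 or 5 (adjusted p of up to 0.0528). A second Unc5d probe set differed by -0.46 and -0.34 and passed both times.

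Unc5b, the vascular member of the family, rose by 20.8% without peptide (0.27 ± 0.05, adjusted p = 0.00235) and by 22.8% with it (0.30 ± 0.04, adjusted p = 0.000428 by limma). Its left values, chosen for printing after they were seen, were 8.60, 8.63, 8.66, 8.76 and 8.62 without peptide, against 8.37, 8.51, 8.28, 8.38 and 8.36 on the right. The groups did not overlap under either treatment. Unc5c fell without peptide (-0.21 ± 0.04, adjusted p = 0.00231) and did not pass with it (-0.15 ± 0.05, adjusted p = 0.0551), except in some alternatives, the replicate block among them. Unc5a stood at 0.11 and 0.08 and did not pass. The other members with 2 probe sets gave less: the second probe set of Ephb1, at a mean of 7.13 close to the control level, differed by -0.06 and -0.02, and neither that of Sema4d (-0.01 and 0.05) nor that of Epha10 (0.06 and 0.01) passed.

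The same comparison in animals given IDR1018 again showed more members lower than higher. With the peptide 26 members fell (38.2%, against 7.07% of all probe sets) and 4 rose (5.88%, against 7.77%), with a median of -0.09 over members and -0.01 over all probe sets. Over the genes with a single symbol 7.96% fell and 9.12% rose. With dim probe sets filtered out, 27 of 67 members fell, against 11.2% of probe sets, and 5 rose, against 12.2%. Of the receptors 17 fell and 1 rose (median -0.19), and of the ligands 9 fell and 3 rose. Over both comparisons 23 members fell each time (82.1% of those lower without peptide and 88.5% of those lower with it) and 4 rose each time (Efna1, Efna3, Efnb1, Unc5b). None fell in one and rose in the other, and 32 passed in neither. The 2 comparisons share no arrays. Passing in one treatment group and not in the other, as for Epha3, Sema4a, Sema4c, Slit1, Slit2, Unc5c, Efna5, Ephb6 and Sema6d, does not show a difference between the treatments, which the interaction below tests.

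Both counts were lower whichever animal was left out, and each omission also leaves fewer arrays to test. A call that ended in an omission, or needed a replicate, therefore does not single out that animal. Without peptide the number of members past the test was 29, 24, 25, 20 and 20 when replicates 1 to 5 were left out in turn, against 33 with all animals. With IDR1018 it was 25, 16, 19, 24 and 21, against 30. Calls over all probe sets dropped in the same omissions, from 5088 to 4413, 3325, 3993, 2788 and 2698 without peptide and from 4184 to 2932, 2323, 2732, 2606 and 3027 with it, so the drop is not particular to the members. Without peptide, Epha3, Ephb1, Sema3e and Sema6a no longer passed without replicate 1, and Sema6a also in each other omission. Efna3, Epha7, Ephb1, Plxna3, Plxna4, Sema4a, Slit1 and Slit2 did not pass without replicate 2, nor did Efna3, Epha7, Ephb1, Plxna4, Sema3e, Slit1 and Slit2 without replicate 3. Omitting replicate 4 ended the calls of Efna3, Epha3, Epha7, Ephb1, Plxna1, Plxna3, Plxna4, Sema3e, Sema4c, Sema5a, Sema6b and Slit2, and omitting replicate 5 those of Efna1, Efna3, Epha7, Ephb1, Plxna1, Plxna3, Sema3e, Sema4a, Sema4c and the 3 Slits. In the peptide group Efna3, Ephb6, Sema3e, Sema6b and Slit3 needed replicate 1, and Efnb1, Epha5, Robo1, Sema3e, Sema6a, Sema6d and Slit3 needed replicate 4. Replicate 2 was needed by Efnb1, Ephb6, Plxna1, Plxna3, Plxna4, Plxnb3, Robo1, Sema3a, Sema4f, Sema6a, Sema6b, Sema6d, Slit3 and Unc5d. Of these, Ephb6, Plxna3, Plxna4, Plxnb3, Sema3a, Sema4f, Sema6a, Sema6b, Sema6d and Slit3 also needed replicate 3, as did Sema3e, and Ephb6, Sema3a, Sema4f, Sema6a, Sema6b, Sema6d and Unc5d needed replicate 5, as did Epha5 and Sema3e. The calls that held in all 13 alternatives were 13 without peptide (Dcc, Efnb1, Epha4, Epha5, Nrp1, Plxna2, Plxnb1, Plxnb3, Robo2, Sema3a, Unc5b, Unc5c, Unc5d) and 12 with it (Dcc, Efna1, Efna5, Epha4, Epha6, Epha7, Nrp1, Plxna2, Plxnb1, Robo2, Sema5a, Unc5b). With the control probe set median of each array as a covariate, an alternative chosen after seeing the data, 17 and 20 members passed (5.45% of all probe sets higher and 4.93% lower without peptide, 5.99% and 4.37% with it).

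Whether IDR1018 changed the members was asked within each hemisphere. By limma no member passed the test in the injured left hemisphere, where 2 of 68 had an unadjusted p under 0.05 (Sema3a and Ntn5), against 4.35% of all probe sets. In the uninjured right hemisphere none passed and none had an unadjusted p under 0.05, against 4.32% of all probe sets. The background was 0% of probe sets higher and 0% lower on the left, and 0.00355% higher and 0% lower on the right. No member passed in any alternative run for either comparison. Among these alternatives the replicate block matched unrelated animals that share a number, so here it is not a paired check.

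The estimates were close to 0 with intervals that still allow moderate changes. In the left hemisphere the peptide minus no peptide differences ran from -0.13 to 0.18, with a median half-width of the 95% interval of 0.12 and interval bounds from -0.32 to 0.33. On the right they ran from -0.11 to 0.07, with a median half-width of 0.09 and bounds from -0.25 to 0.18. Sema3a had the largest positive difference on the left (0.18 ± 0.07, 95% interval 0.04 to 0.33, adjusted p = 0.999 by limma), where the values given above run from 9.29 to 9.62 without and from 9.53 to 9.76 with peptide and overlap. After it the smallest p among positive differences belonged to Robo2 (0.06 ± 0.04) and Slit2 (0.06 ± 0.05). Among negative ones it belonged to Ntn5 (-0.09 ± 0.03), which is near the control level, Sema4d (-0.12 ± 0.06) and Epha2 (-0.11 ± 0.06). On the right Sema4c (0.07 ± 0.04), Efnb1 (0.05 ± 0.04) and Sema4b (0.04 ± 0.05) led the positive and Ephb4 (-0.09 ± 0.04), Ntn5 (-0.08 ± 0.04) and Sema3a (-0.09 ± 0.05) the negative differences, none past the test.

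**Figure D4:**
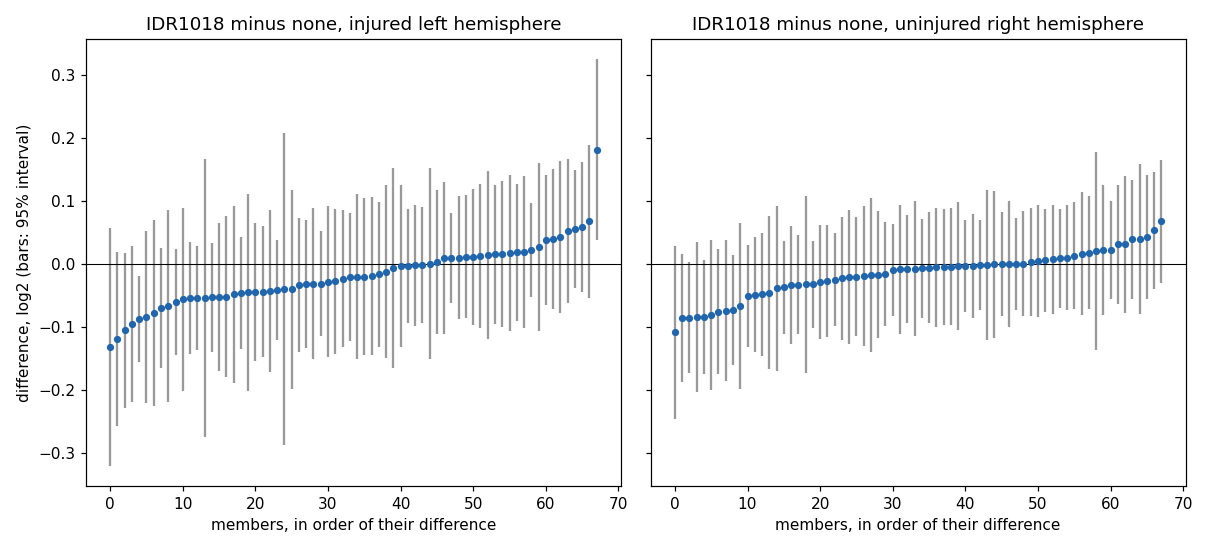
Peptide minus no peptide log2 difference of the 68 members in the injured left and uninjured right hemisphere, in order of size within each panel (points), with 95% intervals (bars). On the left the point at the upper end is Sema3a at 0.18, and on the right all points lie between -0.11 and 0.07.

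The interaction, which is the left-right difference with peptide minus that without, passed for no member by limma, against 0% of probe sets in either direction. Only Sema3a had an unadjusted p under 0.05, against 2.77% of all probe sets. Its left-right difference was smaller in size with IDR1018 by 0.27 ± 0.08 (95% interval 0.09 to 0.44, unadjusted p = 0.00428, adjusted p = 1). Slit2 (0.11 ± 0.06) and Robo2 (0.08 ± 0.05) were next among positive and Sema4c (-0.15 ± 0.08), Epha2 (-0.11 ± 0.07) and Sema3c (-0.10 ± 0.07) among negative values. The interaction shares its arrays with the comparisons above, so it adds no separate measurement.

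Other genes of the pathway were taken from 3 lists of 62 genes, of which 59 were measured. Without peptide 11 fell and 3 rose, with a median of -0.04, and with IDR1018 10 fell and 3 rose, with a median of -0.03. Of 16 receptor partners and related cues 6 fell in each comparison and none rose. Flrt2, an adhesion protein that binds Unc5d, had the largest decrease (-0.49 ± 0.07, adjusted p = 0.000827, and -0.53 ± 0.07 with peptide). The netrin-G Ntng1 (-0.42 ± 0.09 and -0.39 ± 0.09) and its postsynaptic ligand Lrrc4c (-0.39 ± 0.05 and -0.36 ± 0.04) fell too. Of 35 effectors and regulators of the growth cone 4 fell and 3 rose without peptide, and 3 fell and 3 rose with it, which is near the shares of all probe sets (8.84% lower and 9.21% higher without peptide, 7.07% and 7.77% with it). Of 8 myelin inhibitors and their receptors 1 fell in each comparison.

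Markers of cell types moved between the hemispheres as well, and in whole tissue fewer cells of a type and less RNA per cell cannot be told apart. Without peptide all 4 striatal neuron markers fell, as did 1 of 5 general neuronal markers (Tubb3, -0.39), 1 of 3 cortical excitatory markers (Neurod6, -0.38), 2 of 3 markers of oligodendrocyte precursors (Pdgfra, -0.45, and Cspg4, -0.40) and 3 of 5 microglial markers. The mean log2 level of the striatal list was 10.15 to 10.58 in left and 10.75 to 10.97 in right arrays, and with peptide 10.54 to 10.63 and 10.76 to 10.97. The general neuronal list stood at 12.80 to 12.87 and 12.93 to 13.01, and with peptide at 12.85 to 12.89 and 12.92 to 12.99. That of oligodendrocyte precursors stood at 10.04 to 10.28 and 10.38 to 10.47, and with peptide at 10.18 to 10.35 and 10.35 to 10.55. Each of these 3 lists was lower in all left than in all right arrays without peptide, the direction in which the 28 members moved. The same held for the microglial list (8.83 to 8.94 on the left, 9.01 to 9.25 on the right). It also held, narrowly, for the meningeal and fibroblast list (8.638 to 9.198 on the left, 9.204 to 9.397 on the right). The part of these cell types in the result was not tested.

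Of 9 endothelial markers, set beside the vascular members, Pecam1 rose (0.36) and Slco1a4 fell (-0.53) without peptide. The list mean was 9.28 to 9.56 on the left and 9.28 to 9.46 on the right, and with peptide 9.18 to 9.40 and 9.26 to 9.44. Of 6 astrocyte markers 1 rose without peptide (Gfap, 0.32) and 2 with it, where Gfap differed by 0.24. The list mean was 11.70 to 11.80 on the left and 11.70 to 11.72 on the right without peptide. Without peptide 1 of 4 pericyte, 1 of 5 meningeal and 1 of 4 choroid plexus markers fell, 1 of 4 markers of blood monocytes rose, and none of 4 oligodendrocyte or 3 ependymal markers passed. No lymphocyte or neutrophil marker passed in either comparison, and Cd3d, Cd79a, S100a8 and Ngp were below the control median in every array. The part of these cell types in the rise of Efna1, Efnb1 and Unc5b was not tested.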

How the data were processed

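Total RNA from 20 mouse hemispheres was hybridised to 1 array each. The authors' deposited values are on the log2 scale and come from RMA with affy 1.38.1, per the submitters' processing notes; further settings are not given in the sources used here. They were used as deposited. Of 34760 probe sets, 6568 with identifiers in the run below the annotated ones were treated as controls and left out, and 28192 were tested. Symbols came from the platform annotation and were checked in RefSeq (GRCm38.p6), where all 68 members matched by Entrez identifier.

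Groups were compared with limma 3.58.1 in R 4.3.3 (lmFit and eBayes) on the arrays of the 2 groups concerned, and the interaction on all 4 groups, adjusted by Benjamini-Hochberg over those 28192 probe sets, with a threshold of 0.05. The steps were tested on simulated data. Left and right arrays with the same number come from the same animal per the labels; within a treatment their deviations from the group means correlated at 0.0357 to 0.254 (median 0.174). The main fit does not pair them, and the paired fit is an alternative. Numbers do not pair animals across treatments. The replicates are animals, and 5 arrays per group limit the precision.

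Alternatives were median centring, a filter on dim probe sets, control probe sets included, a trended robust variance, the mean of a gene's probe sets, the replicate block, all 4 groups in one fit, each replicate left out and, added after seeing the data, the control level as a covariate. The text names every member past the test, a panel of 25 guidance genes (24 of them measured), and, where fewer than 3 members passed, the 3 higher and 3 lower with the smallest p. All array values are printed for the 8 members with the largest differences, and up to 4 other pathway genes are named. Members and lists were chosen with earlier results of these data known.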

Additional observations from a re-analysis of the deposited data

Results flagged for a closer look

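In 13 of the 272 member groups of 5 arrays, 1 array stood far from the other 4 by Dixon's criterion, which chance meets in about 1 in 20 groups. Uninjured right replicate 1 without peptide was lowest for 4 members: Efna4 (7.91, others 7.99 to 8.01), Epha1 (6.83, others 6.94 to 6.98), Plxna4 (11.63, others 11.67 to 11.69) and Robo2 (11.89, others 11.95 to 11.98). The same group had Nrp2 high in replicate 3 (10.13, others 9.85 to 9.88), Ntn3 high in replicate 2 (9.11, others 8.94 to 8.98) and Sema5a low in replicate 2 (10.70, others 10.81 to 10.84).

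Among the injured left arrays without peptide, Plxnb2 was low in replicate 3 (10.50, others 10.60 to 10.64) and Sema3e in replicate 2 (8.62, others 8.89 to 8.98). With IDR1018 the left array of replicate 4 stood apart for 3 members, low for Plxnc1 (10.84, others 11.03 to 11.10) and Slit2 (9.95, others 10.11 to 10.15) and high for Sema7a (11.39, others 11.07 to 11.12). Efna2 was low in right replicate 1 with IDR1018 (9.80, others 9.96 to 10.01). Without the animal of replicate 4, Sema7a fell with IDR1018 (adjusted p = 0.0231 by limma), where it had not passed with all animals.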

How the results depend on the processing

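No member's called difference changed sign in any alternative. With the control level as a covariate the members past the test without peptide went from 33 to 17 (3 higher, 14 lower), and those lower with IDR1018 from 26 to 17; the cause was not tested. Leaving out 1 animal at a time gave 20 to 29 members without peptide (2 to 5 higher, 17 to 24 lower) and 16 to 25 with IDR1018 (13 to 22 lower). In the same omissions 4.42% to 7.54% of all probe sets were lower without peptide and 3.4% to 5.08% with IDR1018, against 8.84% and 7.07% with all animals. The lowest counts came without replicates 4 and 5 in the first comparison and without replicate 2 in the second. Every omission left the same number of arrays, fewer than in the main fit. With the replicate block, which pairs the hemispheres of an animal, 31 members passed without peptide, 30 of them among the 33. With IDR1018 25 passed, 24 of them among the 30. In these fits 8.86% of all probe sets were higher and 8.08% lower without peptide, and 6.63% and 5.37% with IDR1018. The calls that ended are named in the text above. The block changed no other call apart from those gained by Efna5 without peptide and Unc5c with IDR1018. The remaining alternatives (median centring, filter, controls included, trended robust variance, mean of probe sets, all 4 groups) gave 29 to 34 members without peptide and 25 to 34 with IDR1018. Across them 6.56% to 14.1% of all probe sets were higher and 6.66% to 13.7% lower without peptide. With IDR1018 5.36% to 12.2% were higher and 4.83% to 11.2% lower. Median centring moved the split of all calls without peptide from 49% to 58.2% lower and left 28 members lower. In the peptide comparisons and the interaction 0 members passed by limma in all alternatives, with 2, 0 and 1 at an unadjusted p under 0.05 in the main fit. Signal over background limits Ntn5 and Epha1, which were not above the control level in every array.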
